A study of Mus musculus with 4 samples.

Results

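Circular RNAs (circRNAs) are made when a downstream splice donor is joined to an upstream acceptor, and their level reflects how often this back-splicing takes place and how long the circles last. The set described here holds 7 genes whose proteins act on these steps: Adar, Adarb1, Dhx9, Ilf2, Hnrnpl, Eif2ak2 and Srsf1. Each was found by its gene symbol among the deposited mRNA transcripts, and its transcripts were summed. The 7 genes have 25 transcripts, out of 75959 mRNA transcripts of 21878 genes. They were set beside the total circRNA level of the same samples. As background, pairing of inverted repeats in the flanking introns brings splice sites together. DHX9, a helicase, unwinds such pairs, and the ADAR enzymes edit them from adenosine to inosine. Complexes that hold ILF2 bind double-stranded RNA, and hnRNP L and SRSF1 are splicing factors. PKR, the kinase encoded by Eif2ak2, is activated by double-stranded RNA and can be held inactive by circRNAs that fold into short duplexes. Eif2ak2 and Adar are also known targets of interferon signalling.

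The cells were C3H10T1/2, a mouse mesenchymal stem cell line. In the untreated group (replicates 1 and 2) no agent was given, and no culture time is listed. In the 5-AZA group (replicates 101 and 102) cells were kept with 5-AZA, a cytidine analogue that lowers DNA methylation, at 20 μM for 72 hours and then in fresh medium for 21 days. There were 2 samples per group, and effects of the agent and of time in culture cannot be told apart here. The paper names the replicates biological repeats and the labels do not name separate cultures, so p-values measure the spread between these samples, which may be technical. The mesenchymal genes Col1a1 and Vim were present in every sample, with lowest values of 64.1 and 1178 FPKM. FPKM scales fragments to the length of the transcript and the size of the library, so levels of different genes can be set side by side per length. The depth behind a single FPKM value is unknown. The circRNA values are reads across the back-splice junction scaled to all reads of the library (RPM), and their steps correspond to 92903364 to 93920706 reads per sample.

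The levels of the 7 regulators spanned a wide range in this line. In both untreated samples Srsf1 was highest, followed by Hnrnpl, Eif2ak2, Ilf2, Dhx9, Adar and Adarb1, and the plot of levels by sample shows each value. In the untreated samples, Eif2ak2 and Ilf2 lay close together, at 19.7 to 20.1 FPKM and 18.2 to 19.0 FPKM. In the 5-AZA samples Eif2ak2 had moved up beside Hnrnpl, and the values of these 2 genes overlapped. All 7 genes passed the limit on low values (a mean of at least 0.1 FPKM), as did 13199 genes in all. A gene was called where limma gave a Benjamini-Hochberg adjusted p-value below 0.05 and a change over 2-fold. Of the 7 genes, 1 was called higher after 5-AZA (Eif2ak2) and 0 were called lower. Over all genes tested, 13.1% were called higher and 1.32% lower. Without the limit on the fold, 2 of the 7 were higher (Eif2ak2 and Adar) and 1 was lower (Srsf1), beside 18.6% and 5.93% of all genes. At an unadjusted limma p-value below 0.05 the same 3 genes passed, beside 24.4% of all genes higher and 11.1% lower. Because each sample was a bulk of cells, fewer cells of a type and less RNA per cell cannot be told apart.

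**Figure D1:**
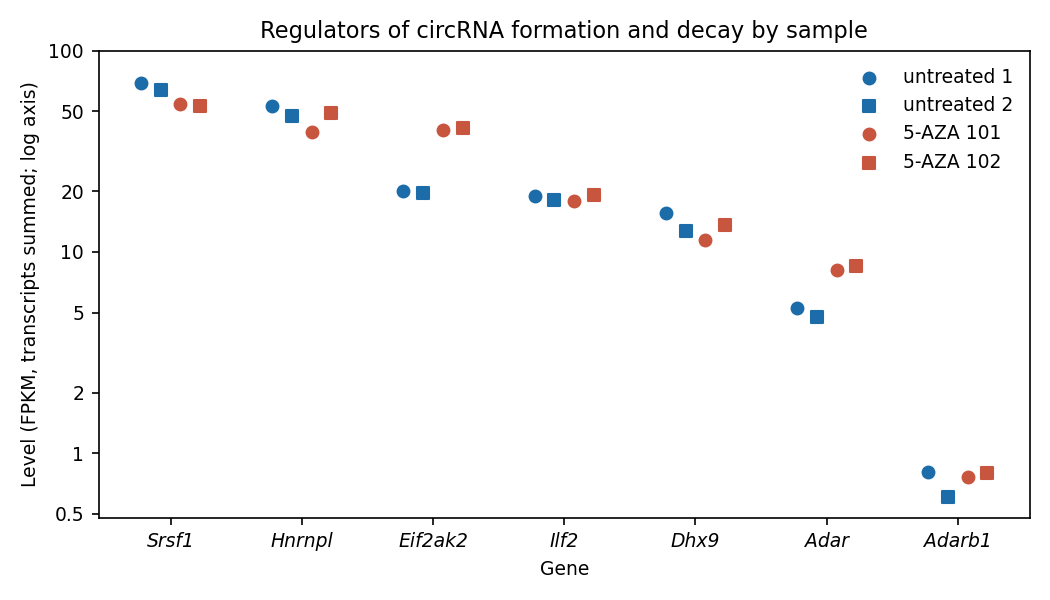
Level of each regulator gene in each sample (FPKM, transcripts summed, log axis), untreated in blue and 5-AZA in red, with circles for replicates 1 and 101 and squares for 2 and 102. Eif2ak2 and Adar lie higher in both 5-AZA samples and Srsf1 lies lower, while the other 4 genes overlap between the groups.

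Eif2ak2, the gene of the kinase PKR, showed the largest change of the set. It is located on chromosome 17 (78850504 to 78882572, GRCm38.p6). Its level was 20.1 and 19.7 FPKM in the untreated samples and 40.2 and 41.1 FPKM after 5-AZA. Both 5-AZA values were thus well above both untreated values, and the difference was far larger than the spread within either group. As a mean, 19.9 ± 0.264 FPKM before and 40.7 ± 0.663 FPKM after (SD, n = 2) gave a rise of 1.03 on the log2 scale (SE 0.10, 95% interval 0.80 to 1.25, limma adjusted p-value 1.11e-04). The ratio of the means, 2.04, sits at the 2-fold limit. With values centred on sample medians, with quantile normalization or with a pseudocount of 1 FPKM it fell just below this limit (log2 fold changes of 0.92, 0.96 and 1.00), and the adjusted p-value stayed below 0.05 in 14 of 14 alternatives. Of all genes tested, 14.2% had a higher log2 fold change.

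Adar, the gene of the main editing enzyme of double-stranded RNA, was next. It lies on chromosome 3 (89714469 to 89753455). Its level was 5.26 and 4.74 FPKM in the untreated samples and 8.15 and 8.51 FPKM after 5-AZA, with no overlap. The log2 fold change was 0.73 (SE 0.14, 95% interval 0.40 to 1.06, limma adjusted p-value 0.00658), so Adar rose by a factor of 1.66 in the means and was not called under the 2-fold limit. Without 5-AZA replicate 101 or 102 the limma adjusted p-value was 0.105 and 0.119. Adarb1, the gene of the related editing enzyme ADAR2 (chromosome 10, 77290727 to 77418292), was the lowest of the set. Its level was 0.808 and 0.605 FPKM in the untreated samples and 0.765 and 0.801 FPKM after 5-AZA. The groups overlapped, and the log2 fold change was 0.14 (SE 0.28, 95% interval -0.49 to 0.78, limma adjusted p-value 0.766). At this low level a rise of up to 0.78 on the log2 scale lay within the interval. The sign of this value turned under quantile normalization (-0.82, limma adjusted p-value 0.0425) and without untreated replicate 2 (-0.04).

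Eif2ak2 and Adar are both known interferon targets, so their promoters were compared with that of Isg15, a ubiquitin-like interferon-stimulated gene taken after its values were seen as an example from the interferon list. Isg15 stood at 2.08 and 1.33 FPKM in the untreated samples and 55.8 and 54.1 FPKM after 5-AZA. The 250 bases before the transcription start are printed 5′ to 3′ on the strand of the gene from RefSeq (GRCm38.p6), with matches to the core of the interferon-stimulated response element (GAAA, any 2 bases, GAAA) in capitals. Eif2ak2 lies on the minus strand (chr17:78882573-78882822), Adar on the plus strand (chr3:89714988-89715237, the window of 1 of its 3 listed starts) and Isg15 on the minus strand (chr4:156200819-156201068).
Eif2ak2: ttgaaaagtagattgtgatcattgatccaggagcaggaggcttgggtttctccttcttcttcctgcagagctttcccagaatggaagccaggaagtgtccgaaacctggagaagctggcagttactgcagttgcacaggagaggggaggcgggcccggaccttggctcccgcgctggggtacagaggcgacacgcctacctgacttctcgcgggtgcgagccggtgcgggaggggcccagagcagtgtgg
Adar: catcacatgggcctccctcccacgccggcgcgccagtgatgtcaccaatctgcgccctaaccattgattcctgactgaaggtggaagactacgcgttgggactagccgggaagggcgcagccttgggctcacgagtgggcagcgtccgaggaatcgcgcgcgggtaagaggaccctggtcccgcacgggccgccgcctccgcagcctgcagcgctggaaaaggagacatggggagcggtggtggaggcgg
Isg15: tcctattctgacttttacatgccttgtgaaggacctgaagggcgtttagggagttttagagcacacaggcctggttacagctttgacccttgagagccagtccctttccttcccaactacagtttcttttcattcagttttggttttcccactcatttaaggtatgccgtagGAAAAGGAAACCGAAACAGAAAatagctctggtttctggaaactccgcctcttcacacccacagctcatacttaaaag
The Isg15 window holds 3 overlapping matches, beginning 78, 72 and 66 bases before the start. No match was found on either strand (TTTC, any 2 bases, TTTC on the other) in the 9 windows listed for the 7 regulators, which says only that these letters are not in these windows. Over all promoters of this length in the table, 978 of 32851 (2.98%) hold a match. Counted by gene, 936 of 27025 (3.46%) have a window with a match, and 6 of the 11 interferon genes with a listed promoter do.

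The helicase gene Dhx9 and the gene of the double-stranded RNA binding partner Ilf2 were not called. Dhx9 (chromosome 1, 153455756 to 153487688) stood at 15.6 and 12.7 FPKM in the untreated samples and at 11.4 and 13.7 FPKM after 5-AZA. The groups overlapped, with a log2 fold change of -0.17 (SE 0.15, 95% interval -0.51 to 0.17, limma adjusted p-value 0.474). Ilf2 (chromosome 3, 90476201 to 90488379) was the steadiest of the 7, at 19.0 and 18.2 FPKM and then 17.9 and 19.2 FPKM. Its log2 fold change was -0.01 (SE 0.11, 95% interval -0.26 to 0.25, limma adjusted p-value 0.982).

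The splicing factor genes Hnrnpl and Srsf1 were the most abundant of the set per length in both untreated samples. Hnrnpl (chromosome 7, 28808546 to 28822268) stood at 53.1 and 47.6 FPKM in the untreated samples and 39.6 and 49.1 FPKM after 5-AZA. The values overlapped, and the log2 fold change was -0.19 (SE 0.13, 95% interval -0.47 to 0.10, limma adjusted p-value 0.335). Srsf1 (chromosome 11, 88046499 to 88053757) stood at 69.5 and 64.2 FPKM in the untreated samples and 54.2 and 53.3 FPKM after 5-AZA. Both 5-AZA values were below both untreated values. Srsf1 fell by 0.31 on the log2 scale (SE 0.10, 95% interval -0.53 to -0.09, limma adjusted p-value 0.0455), a ratio of means of 0.805 that is under 2-fold and not called. This adjusted p-value sat next to the threshold, was below it in 5 of 14 alternatives, and lay between 0.148 and 0.388 when any single sample was left out. Of all genes tested, 25.4% had both 5-AZA values below both untreated values and 36.8% had both above.

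**Figure D2:**
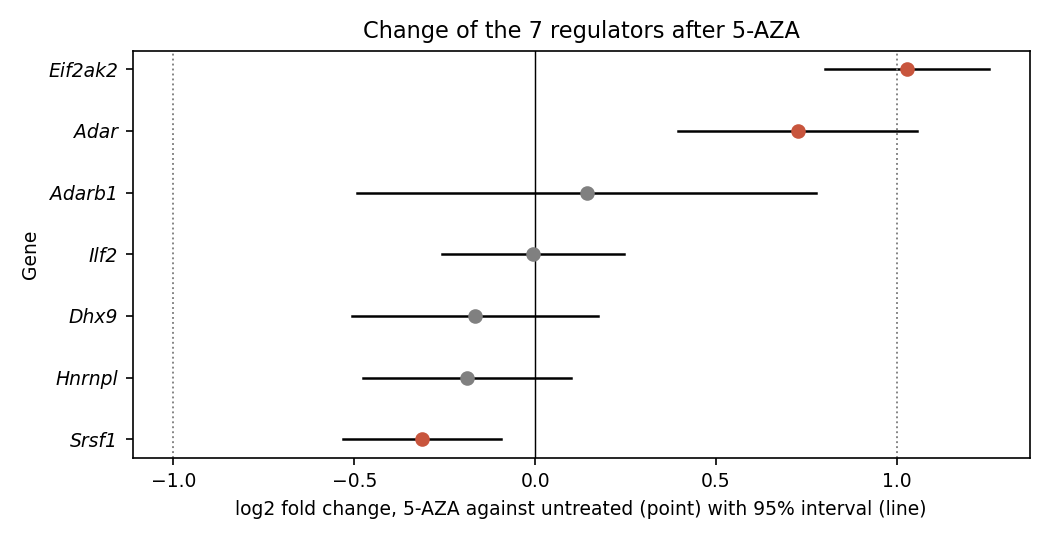
log2 fold change of each regulator gene, 5-AZA against untreated (point), with its 95% interval (line), on log2(FPKM + 0.1). Red points have a limma adjusted p-value below 0.05 and grey points do not, and the dotted lines mark a 2-fold change. Eif2ak2 (1.03) is the one gene beyond the upper line.

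The transcripts showed which forms carried these levels. Of the 25 transcripts, 18 had a mean of at least 0.1 FPKM and were tested, 1 was called higher and 0 were called lower. Among all tested transcripts of any gene the shares were 2.1% higher and 0.262% lower. At an unadjusted limma p-value below 0.05, 4 of the 18 passed (NM_011163.4 of Eif2ak2, NM_019655.3 and NM_001146296.1 of Adar, all higher, and NM_173374.4 of Srsf1, lower), beside 10.6% of all transcripts higher and 5.37% lower. The transcript called was NM_011163.4 of Eif2ak2, at 18.8 and 18.7 FPKM in the untreated samples and 38.4 and 37.1 FPKM after 5-AZA. It held 90.1% to 95.6% of the level of the gene in every sample, and its log2 fold change was 1.01 (SE 0.11, limma adjusted p-value 0.0145). The other Eif2ak2 transcript, the predicted XM_006523863.3, stood at 1.32 and 0.979 FPKM and then at 1.77 and 4.05 FPKM.

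Adar was divided among several transcripts that the short reads may not separate fully. NM_019655.3 stood at 1.86 and 2.02 FPKM in the untreated samples and at 4.11 and 4.08 FPKM after 5-AZA, and its share of the gene was 35.4% and 42.7% and then 50.4% and 48.0%. Its log2 fold change of 1.04 (SE 0.25) had a limma adjusted p-value of 0.120 among transcripts. NM_001038587.4 stood at 2.86 and 1.93 FPKM in the untreated samples and 1.57 and 3.05 FPKM after 5-AZA, so that the groups overlapped. NM_001146296.1, with a mean just under 1 FPKM and named after its values were seen, stood at 0.145 and 0.277 FPKM and then at 2.44 and 1.08 FPKM (limma adjusted p-value 0.130). The rise of Adar as a gene was a sum over transcripts of which none was called by itself.

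**Figure D3:**
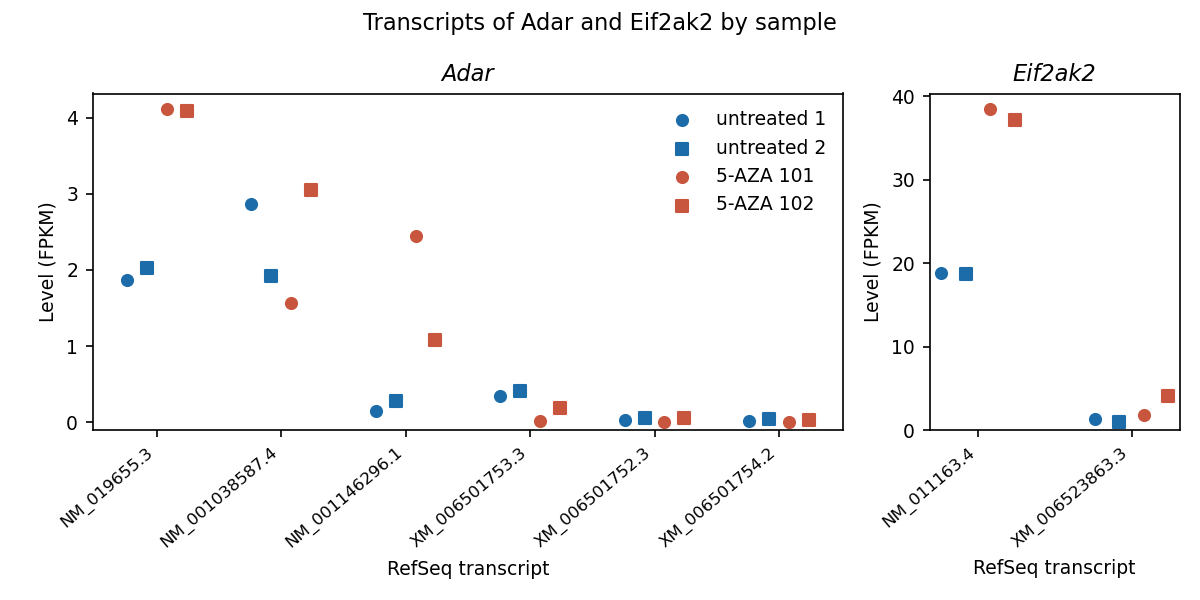
Level of each transcript of Adar (left) and Eif2ak2 (right) in each sample (FPKM, linear axes with separate scales), untreated in blue and 5-AZA in red. NM_011163.4 of Eif2ak2 and NM_019655.3 of Adar are higher in both 5-AZA samples, and NM_001038587.4 of Adar overlaps between the groups.

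The other regulators kept 1 leading form in both groups. For Dhx9, the predicted transcript XM_011247918.2 held 80.0% to 91.1% of the level, at 14.2 and 10.1 FPKM and then 9.73 and 11.9 FPKM, and NM_007842.2 held the rest. For Hnrnpl, NM_177301.5 stood at 41.8 and 36.5 FPKM in the untreated samples and 30.6 and 38.1 FPKM after 5-AZA, and XM_006539557.2 at 9.99 and 9.62 FPKM and then 5.96 and 9.38 FPKM. The 1 transcript of Ilf2 was NM_026374.3. For Srsf1, NM_173374.4 stood at 54.6 and 48.1 FPKM in the untreated samples and at 40.5 and 39.7 FPKM after 5-AZA (log2 fold change -0.35, SE 0.11, limma adjusted p-value 0.214). NM_001078167.2 of Srsf1 stood at 14.9 and 16.01 FPKM and then at 13.7 and 13.6 FPKM. Its share of the gene was 21.4% to 25.6% over the 4 samples. No transcript of Adarb1 reached a mean of 1 FPKM, and its leading form NM_130895.3 stood at 0.444 and 0.389 FPKM and then at 0.658 and 0.515 FPKM.

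Among 10799 other genes with a mean of at least 1 FPKM, the 3 whose profile over the 4 samples lay nearest to that of Eif2ak2 were Tfrc, Pde4d and Adcy7. Likeness was measured as the Euclidean distance between log2 profiles centred on their mean, over 4 samples. Tfrc, the gene of the transferrin receptor, stood at 11.4 and 11.4 FPKM in the untreated samples and 22.3 and 23.5 FPKM after 5-AZA (distance 0.0415). Pde4d, a cAMP phosphodiesterase gene, and Adcy7, an adenylate cyclase gene, had distances of 0.0635 and 0.0718.

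A wider list of 61 genes with roles in circRNA formation, splicing, RNA modification, export, decay and double-stranded RNA binding was read in the same fit. Of these genes 60 were in the table and 56 were tested, 3 were called higher and 0 were called lower, beside 13.1% and 1.32% of all genes. The 3 were Rbm20, a splicing factor of titin and other muscle genes, and the cytoplasmic double-stranded RNA sensors Dhx58 and Ifih1. Dhx58 stood at 0.757 and 0.281 FPKM in the untreated samples and 8.47 and 8.05 FPKM after 5-AZA (log2 fold change 3.87, SE 0.35, limma adjusted p-value 7.22e-05). Ifih1 was listed at 0 in both untreated samples and stood at 1.58 and 1.75 FPKM after 5-AZA (limma adjusted p-value 3.07e-05). Rbm20 stood at 0.125 and 0.0617 FPKM in the untreated samples and at 1.21 and 1.51 FPKM after 5-AZA (log2 fold change 2.93, SE 0.33, limma adjusted p-value 2.73e-04). Rbm20 and Ifih1 passed the limit on low values only through the 5-AZA samples, so a low level before treatment was part of their selection, and with a mean of at least 1 FPKM neither was tested. Without 5-AZA replicate 101 or without 102, 1 gene of the list was called. At an unadjusted limma p-value below 0.05, 6 of the 56 were higher and 8 lower, beside 24.4% and 11.1% of all genes.

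Smaller changes passed the adjusted p-value without reaching 2-fold. In this range Stau2, the gene of a double-stranded RNA binding protein of RNA transport, rose from 2.58 and 3.08 FPKM to 4.75 and 4.95 FPKM (log2 fold change 0.76, limma adjusted p-value 0.0139). Prkra, the gene of the PKR activator PACT, fell from 18.4 and 15.8 FPKM to 12.4 and 12.8 FPKM (log2 fold change -0.43, limma adjusted p-value 0.0347). Eif2ak2 and the gene of its activator thus changed in opposite directions, also under both other scalings. The splicing factor gene Srsf3 fell from 113.4 and 113.8 FPKM to 87.6 and 90.7 FPKM (-0.35, limma adjusted p-value 0.0227). Each of these 3 lost its limma adjusted p-value in some alternatives, with 9 of 14 below the threshold for Stau2, 9 for Srsf3 and 6 for Prkra.

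Among 15 formation factors tested, 13 had a negative log2 fold change and the median was -0.14, beside 0.05 over all genes. Hnrnpm had the lowest value (34.4 and 28.6 FPKM, then 23.2 and 25.6 FPKM, limma adjusted p-value 0.0653), and Srsf6 stood at 43.4 and 37.5 FPKM and then at 34.1 and 31.6 FPKM. Hnrnpc was on the positive side, at 77.1 and 75.7 FPKM and then 79.4 and 91.0 FPKM, and Celf1 and Ptbp1 overlapped between the groups. Apart from Rbm20 and Srsf3, no formation factor passed the adjusted p-value on FPKM as deposited. Centred on sample medians 5 were lower at this threshold (14% of all genes), and with quantile normalization 4 (19% of all genes). Among 15 decay factors the median was -0.10, with 7 positive and 8 negative values. In each direction 1 gene passed the adjusted p-value, beside 18.6% of all genes higher and 5.93% lower. Under each of these scalings 6 were lower, beside the same 14% and 19% of all genes. Here G3bp2 rose from 30.7 and 30.8 FPKM to 36.7 and 42.3 FPKM (0.36, limma adjusted p-value 0.0423). Tnrc6a, the gene of a scaffold of microRNA silencing, fell from 9.80 and 8.97 FPKM to 5.68 and 7.23 FPKM (-0.54, limma adjusted p-value 0.0377). Both were near the threshold and stayed below it in 5 and 6 of 14 alternatives.

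The remaining decay genes at the ends of the list were Rpp30 and G3bp1 on the positive side (0.20 and 0.18) and Tnrc6c and Dicer1 on the negative side (-0.34 and -0.41), and none of these 4 passed. None of the 8 core splicing and end-processing factors, 4 modification factors and 5 export factors passed either on FPKM as deposited, and under each other scaling 1 core splicing factor was lower. Their extremes were Cpsf3 (0.32) and Prpf8 (-0.24), Mettl14 (0.34) and Ythdf2 (-0.10), and Nxf1 (0.08) and Xpo4 (-0.28). Over the 56 genes 26 values were positive and 30 negative. With values centred on sample medians or with quantile normalization the split was 14 positive and 42 negative, so the balance of signs depended on the scaling. At the adjusted p-value 3 of the 56 were lower as deposited, 13 with centring and 12 with quantile normalization, beside 5.93%, 14% and 19% of all genes. The median over all genes moved from 0.05 to -0.06 and -0.12 under these scalings.

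**Figure D4:**
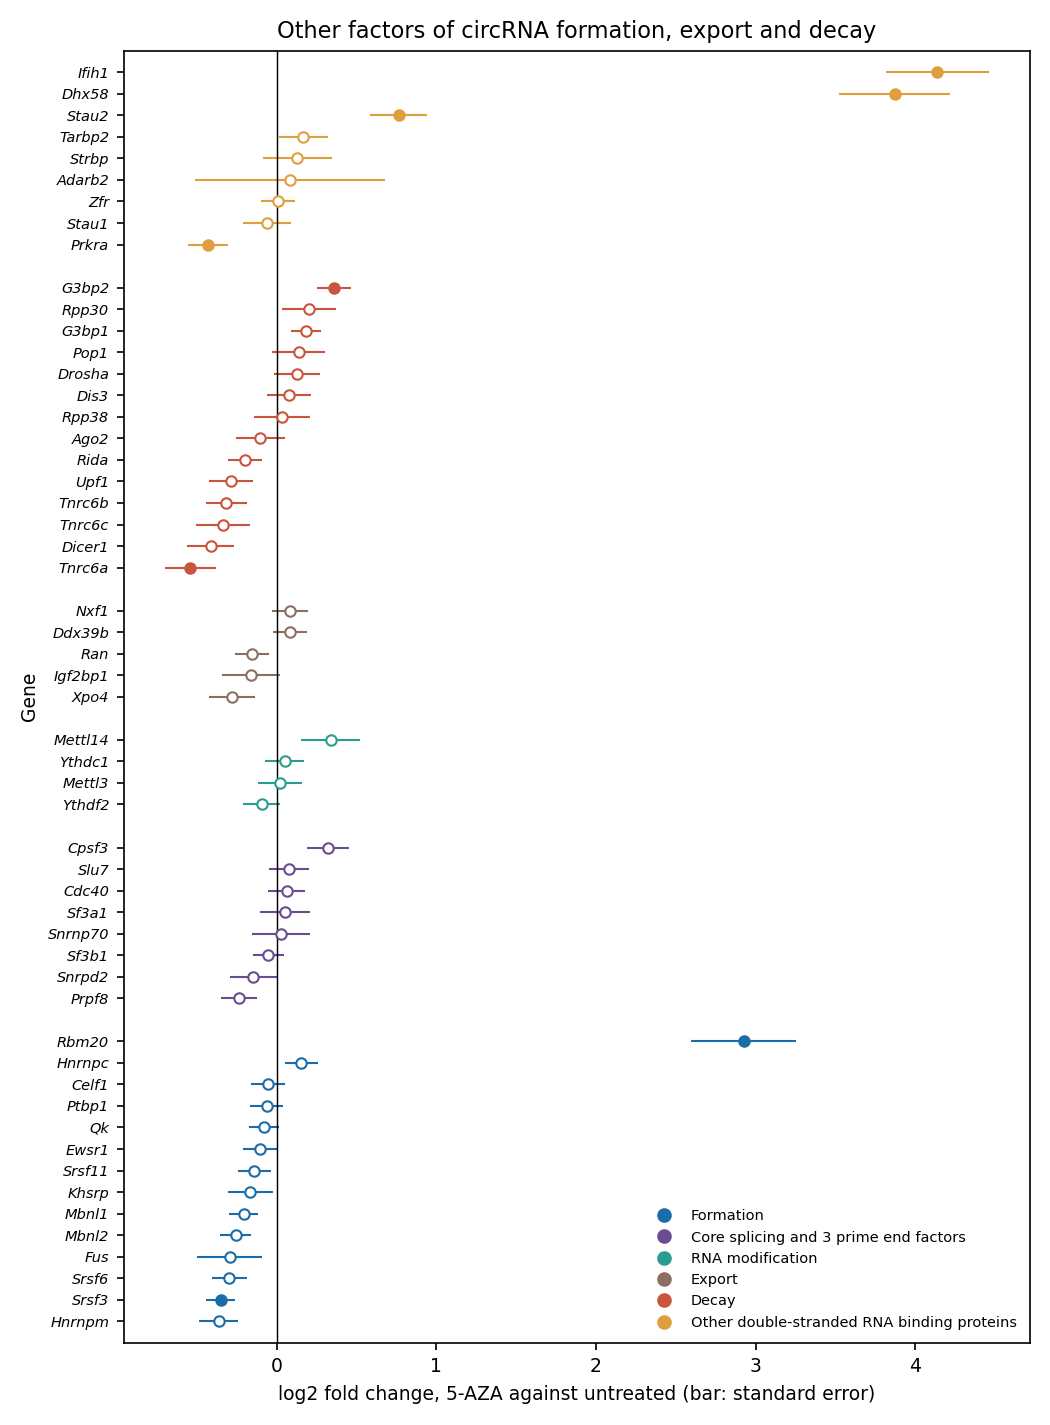
log2 fold change of 54 of the 56 tested genes of the wider list, 5-AZA against untreated, by role (colours), with standard errors as bars. Filled points have a limma adjusted p-value below 0.05, and Rbm20, Dhx58 and Ifih1 lie apart from the rest at 2.93 to 4.14.

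Other gene groups moved with the rise of Eif2ak2, Adar, Dhx58 and Ifih1. Beside the counts called below, 13.1% of all genes tested were called higher and 1.32% lower. All 13 tested genes of the interferon list were called higher (median 4.30 on the log2 scale), and the summed level of the list was 39.2 to 48.2 FPKM in the untreated samples and 401 to 424 FPKM after 5-AZA. All 10 skeletal muscle markers were called higher, with sums of 1.28 to 1.62 FPKM and then 819 to 1253 FPKM. So were 6 of 7 tested adipocyte markers, with sums of 30.1 to 45.9 FPKM and then 1123 to 1535 FPKM. Of 4 epithelial markers 3 were called higher (Krt8, Krt18 and Epcam), with sums of 0.877 to 0.941 FPKM and then 19.9 to 25.1 FPKM. The other, Cdh1, had a log2 fold change of -0.79 and did not pass the adjusted p-value. Over the alternatives the log2 fold change of Epcam was 0.25 to 3.67. With a pseudocount of 1 FPKM, 2 of the 4 epithelial markers passed the adjusted p-value. A marker with a very low untreated level could pass the limit on low values only through the 5-AZA samples. With a mean of at least 1 FPKM, 9 muscle and 2 epithelial markers were tested, and all were higher at the adjusted p-value (14.7% of all genes). That mean also includes the 5-AZA samples, so the stricter limit does not remove this selection and lends no support. Of the 8 immune cell markers 2 were tested and Cd68 was called, the sums were 2.13 to 3.20 and then 3.27 to 5.20 FPKM, and Adgre1 and Cd3e were listed at 0 in every sample. With quantile normalization or with eBayes without trend, 0 of the 2 tested immune markers passed the adjusted p-value. The 10 mesenchymal genes summed to 9046 to 9076 FPKM and then to 5943 to 6082 FPKM, but did not move together. At the adjusted p-value 3 were higher (Col3a1, Ly6a and Thy1, of which Thy1 was called) and 4 were lower, beside 18.6% and 5.93% of all genes. The abundant S100a4 and Vim were among the 4 lower genes. The part of these cell type markers in the changes of the regulators was not tested. For the 12 proliferation genes the log2 fold changes were all negative (median -0.27), 0 were called by limma, 4 were lower at an unadjusted p-value below 0.05 (11.1% of all genes), and Ccna2 passed the adjusted p-value. With centring 5 and with quantile normalization 4 of the 12 passed it, all lower, beside 14% and 19% of all genes (5.93% as deposited).

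The circRNA total was set beside these levels. The summed circRNA level was 142.9 and 143.3 RPM in the untreated samples and 117.4 and 111.2 RPM after 5-AZA. The mean was thus 143.1 ± 0.315 and then 114.3 ± 4.34 RPM (SD, n = 2), which is 20.1% lower, and the groups did not overlap. An exact permutation test of 2 samples against 2 cannot go below a two-sided p-value of 0.333, which is the value found. The number of circRNAs detected was 1813 and 1851 in the untreated samples and 1567 and 1539 after 5-AZA. The junction reads behind the totals were 13282, 13388, 10905 and 10448, and a detected circRNA had a mean of 7.33, 7.23, 6.96 and 6.79 reads in the same order. A circRNA was listed only from 2 reads upward, so a lower level also removes circles from the list.

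**Figure D5:**
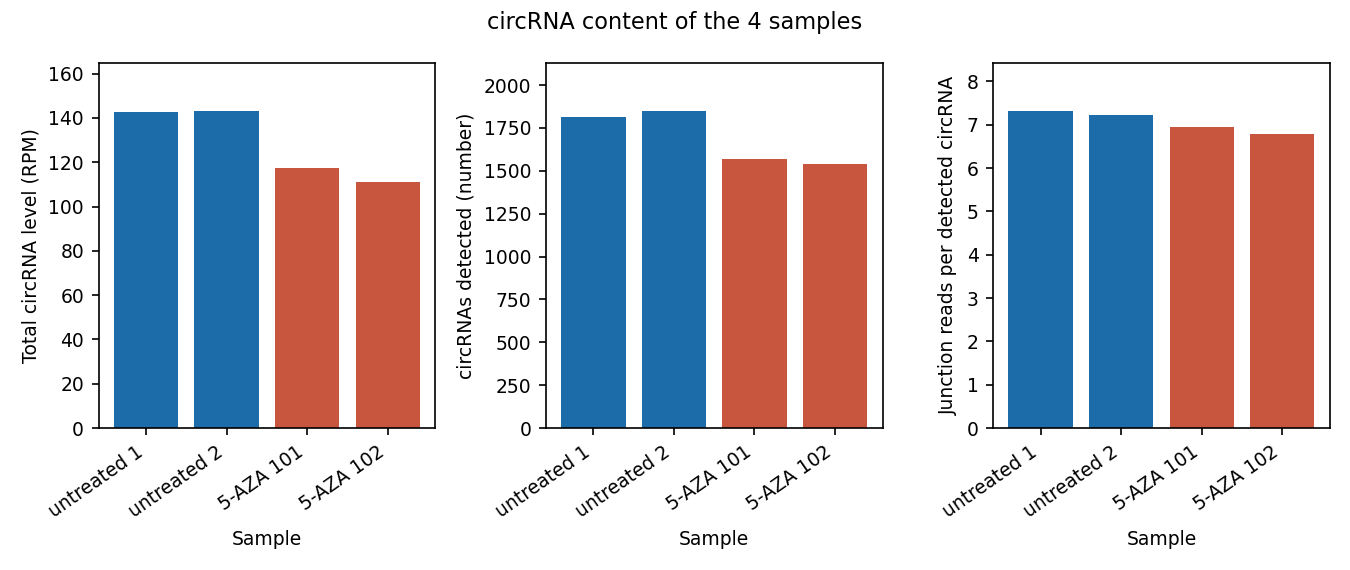
Total circRNA level (RPM), number of circRNAs detected and mean junction reads per detected circRNA in each sample, from left to right, with untreated in blue and 5-AZA in red and each bar a single sample. The total lies between 111.2 and 117.4 RPM in the 5-AZA samples, below 142.9 and 143.3 RPM in the untreated samples.

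The lower total was spread over the classes that hold most circRNAs. The 3842 sense-overlapping circRNAs, the largest class, were 20.3% lower. The 381 circRNAs detected in all 4 samples summed to 79.9 and 80.7 RPM in the untreated samples and 67.0 and 62.8 RPM after 5-AZA. Exonic circRNAs summed to 25.3 and 25.7 RPM and then 20.1 and 19.5 RPM. The 10 most abundant circRNAs were 20.8% lower, and the total without them kept a log2 ratio of -0.32. By genomic span, circRNAs from 1000 to under 10000 bases were 26.0% lower, those under 1000 bases 13.8% lower and those of 10000 bases or more 15.8% lower. The 55 antisense circRNAs went the other way, at 0.473 and 0.557 RPM and then 0.710 and 0.884 RPM, from 44, 52, 66 and 83 reads. The 105 intergenic circRNAs overlapped between the groups, at 2.76 and 2.42 RPM and then 2.03 and 3.20 RPM. Of 1360 circRNAs tested one by one, 0% were called higher and 0% lower by limma. An unadjusted limma p-value below 0.05 was found for 91 that were higher and 160 that were lower. The paper used a negative binomial test and reports differing circRNAs in both directions, so the 0% belongs to the test and limits used here.

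circRNA levels were also set against the mRNA of their host genes. Over 1268 hosts with a mean of at least 1 FPKM and at least 5 junction reads, the circRNA level per 1000 FPKM of host mRNA was 3.50 and 3.55 RPM in the untreated samples and 3.20 and 2.77 RPM after 5-AZA. Of these hosts, 206 had 0 reads in both 5-AZA samples and 130 had 0 reads in both untreated samples. Among the 932 hosts with circRNAs in both groups, the median log2 ratio was -0.33 for circRNA and -0.08 for mRNA, and the median difference was -0.27. This median difference was -0.48 and -0.42 without an untreated sample, and -0.03 and 0.00 without a 5-AZA sample. Hosts were chosen anew each time, and whether that choice shifted the value was not tested. Of the 7 regulators, those with the higher levels after 5-AZA (Eif2ak2 and Adar) and the one with the lower level (Srsf1) are thus given beside a lower circRNA total in the same 4 samples, and any link was not tested.

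Among the regulators, Srsf1 was itself the host of circRNAs, and none was listed for the other 6 genes. The 2 circRNAs of Srsf1 are both exonic, on the plus strand of chromosome 11, and begin at base 88049977. They end at 88051332 (mmu_circ_0003527, 1356 bases) and at 88053039 (mmu_circ_0003528, 3063 bases), inside the Srsf1 gene of GRCm38. The shorter was found with 2 reads in 5-AZA replicate 101 and 0 reads in the other samples. The longer had 9 and 3 reads in the untreated samples and 3 and 18 reads after 5-AZA. Its groups overlapped, and the log2 fold change of 0.43 (SE 0.94, 95% interval -2.47 to 3.32, limma adjusted p-value 1.00) could not be told from 0. Leaving out untreated replicate 2 or 5-AZA replicate 102 turned its sign (-0.14 and -0.57).

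Genes of the wider list also hosted circRNAs. Zfr, the gene of a double-stranded RNA binding zinc finger protein, gave 6 circRNAs with 10 and 14 reads in the untreated samples and 3 and 17 reads after 5-AZA. Mbnl2, a splicing factor gene, gave 1 circRNA with 16 and 9 reads and then 8 and 9 reads. For Tnrc6b, 7 circRNAs had 4 and 16 reads and then 0 and 7 reads. These 3 genes held the most junction reads of the list and were chosen after their values were seen. In all 3 the groups overlapped or met.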

How the data were processed

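Ribosomal RNA-depleted total RNA of 2 untreated and 2 5-AZA samples of C3H10T1/2 was sequenced with a stranded protocol. The authors trimmed the reads with Trimmomatic, and the processing notes also name HISAT2, Bowtie2 2.2.9, eXpress 1.5.1 and mm9. The authors deposited FPKM values per mRNA transcript and RPM values per circRNA. The circRNA coordinates lie within the RefSeq gene spans of GRCm38.p6 for 3976 of 4047 matched circRNAs (98.2%), so positions were read on GRCm38. The deposited lncRNA values were not used here. Values of some single genes of the lists are not reported here.

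Transcripts were summed per gene. Values of log2(FPKM + 0.1) were fitted with limma 3.58.1 (lmFit, eBayes with trend) in R 4.3.3 for genes or transcripts whose mean in the 4 samples reached 0.1 FPKM, with Benjamini-Hochberg adjustment over all of them. Fold changes are on this scale, which understates the change of low genes. For circRNAs the pseudocount was 0.0213 RPM and at least 2 samples had to hold reads. All RPM values (100%, within 1e-06 reads) were whole multiples of the value of 1 read. Counts of junction reads were taken from these steps, and they cover counting error only. Depth of the FPKM values is unknown. Named genes are the 7 regulators, their transcripts with a mean of at least 1 FPKM, their circRNAs, called genes of the wider list with up to 3 of the highest and 3 of the lowest of each role, and the 3 nearest profiles. The regulators and lists were chosen with earlier results of these data known. Alternatives covered pseudocounts, limits on low values, scalings, eBayes without trend, transcript choice, circRNA subsets and leaving out each sample.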

Additional observations from a re-analysis of the deposited data

How the results depend on the processing

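No paired analysis was possible because the untreated samples (1 and 2) and the 5-AZA samples (101 and 102) share no replicate numbers. The planned count test of circRNAs was not run, and limma voom on the junction reads, chosen after seeing the data, gave 0.49 for mmu_circ_0003528. The number of regulators called higher (1) became 0 with a pseudocount of 1 FPKM, with centring on sample medians and with quantile normalization, and 2 with no limit on the fold and with the most abundant transcript of each gene (an alternative added after seeing the data), and the number called lower (0) became 1 with no limit on the fold. The 1 transcript called became 0 with a pseudocount of 1 FPKM, no limit on low values, centring, quantile normalization and eBayes without trend, and was 0 to 0 with any sample left out. In the wider list the 3 called higher became 1 with a mean of at least 1 FPKM, 5 with no limit on the fold, and 1 to 3 with a sample left out, and 3 were lower with no limit on the fold. Over all genes 1724 were called higher and 174 lower. These became 875 and 86 with a pseudocount of 1 FPKM, 845 higher with a mean of at least 1 FPKM, 83 lower with no limit on low values, 1041 and 886 with quantile normalization, 783 lower with no limit on the fold (2449 higher), and 733 to 1617 higher and 52 to 184 lower with a sample left out.

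The log2 ratio of the circRNA total was -0.36 to -0.29 with a sample left out. The median difference of circRNA and host mRNA was -0.48 to 0.00 (0.0042 without 5-AZA replicate 102). Hosts had to hold reads in the single sample left in a group, and the effect of this was not tested. For mmu_circ_0003528 the log2 fold change was -0.57 to 1.42. Signs of values that were not called turned with a sample left out for Ilf2 and its NM_026374.3 (-0.056 to 0.046, 0.026 without untreated replicate 1), Adarb1 (-0.040 to 0.32, and -0.82 with quantile normalization), NM_001038587.4 (-0.56 to 0.36), XM_011247918.2 (-0.39 to 0.089) and NM_007842.2 (-0.54 to 0.28). Where no other value shows it, the cause was not tested. A fit that leaves a group with 1 sample assumes that this sample varies like the other group. The number of samples limits every result.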
